A study of Mus musculus with 3 samples.

Results

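The IFIT and OAS antiviral families were followed as 10 genes, taken by symbol from the 32285 genes of the count matrices: 4 of the IFIT family (*Ifit1*, *Ifit2*, *Ifit3* and *Ifit3b*) and 6 of the OAS family (*Oas1a*, *Oas1g*, *Oas2*, *Oas3*, *Oasl1* and *Oasl2*). All 10 were found, and all 10 had at least 50 unique molecular identifiers (UMIs, the tags that count captured mRNA molecules) over the 3 libraries, as did 13414 genes in all. The cells were bone marrow-derived macrophages (BMDMs) grown from marrow of female C3H/HeN mice aged 6 to 8 weeks, and no altered gene is named in the labels. In the Ctrl library the BMDMs had received PBS, in the LP1 library purified lipoproteins of the Lyme disease spirochete *Borrelia burgdorferi* (*Bb*LP) at 1 µg/mL for 1 h, and in the LP4 library the same dose for 4 h. Per the study's methods, Ctrl cells were collected at 4 h, so exposure and time in culture cannot be told apart between LP1 and Ctrl. The same methods describe BMDMs of 3 mice treated independently, with the cells of 3 wells pooled for each library. Each condition was therefore 1 droplet (10x Genomics) library without a replicate. No test of the conditions was possible, and every interval given here is an exact 95% interval that covers counting error only.

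The proteins of the IFIT family (interferon-induced proteins with tetratricopeptide repeats) bind viral RNA and hold back its translation. Oligoadenylate synthetases (OAS) sense double-stranded RNA and make 2′-5′-linked oligoadenylate, a messenger of the antiviral response. The OAS-like proteins OASL1 and OASL2 share the fold, and OASL1 is known in the mouse for holding back translation of the *Irf7* mRNA. Both families are textbook interferon-stimulated genes: type I interferon acts through its receptor and a complex of transcription factors that binds the interferon-stimulated response element in their promoters.

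The libraries held 6071 Ctrl, 5065 LP1 and 4670 LP4 cells after filtering, with 35688939, 52475723 and 61402275 UMIs and medians of 5133, 9343 and 11784 UMIs per cell. Median mitochondrial shares were 1.97%, 2.84% and 3.17%. Between 4 and 10 cell barcodes were shared by any 2 libraries. Of 12 macrophage markers, *Lyz2*, *Cd68*, *Csf1r* and *Ctsb* each gave a UMI in at least 94.5% of the cells of every library, while *C1qa* and *C1qb* did so in at most 18.7%. Because the depth per cell differed, levels are given as UMIs of a gene per 1000000 UMIs of the library (CPM), and shares of cells after each cell was thinned at random to 2000 UMIs, which kept 5949, 5052 and 4625 cells.

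The IFIT members lie near each other on chromosome 19, and the OAS members are on chromosome 5 (mouse GRCm38, GENCODE M21, all 10 protein-coding). *Ifit2* (chr19:34550694-34576419), *Ifit3* (chr19:34583531-34588731), *Ifit3b* (chr19:34607970-34613401) and *Ifit1* (chr19:34640871-34650009) are on the plus strand within 99.3 kb. *Oasl2* (chr5:114896936-114912234) and *Oasl1* (chr5:114923240-114937915) are neighbors on the plus strand. *Oas2* (chr5:120730333-120749853), *Oas3* (chr5:120753098-120777661), *Oas1g* (chr5:120876142-120887613) and *Oas1a* (chr5:120896256-120907521) stand together on the minus strand.

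The promoters are shown because most members with a matched window share a regulatory element there. Any link between this element and the ratios given further on was not tested. RefSeq promoter windows (GRCm38.p6, 250 bases before to 50 bases after a start) were matched for 9 of the 10 members, all except *Oas2*. They were searched on both strands for the core of the interferon-stimulated response element: GAAA, any 2 bases, then GAAA, which reads TTTC, any 2 bases, then TTTC on the other strand. It was present in 6 of the 9 member genes, against 3.99% of 27025 genes and 3.44% of 32851 windows. The stretches that hold it are printed 5′ to 3′ on the strand of the gene, with each match in capitals; in *Oas1g* and *Oas1a* a pair of overlapping matches makes up 1 run of capitals.
Ifit1, chr19:34640770-34640828: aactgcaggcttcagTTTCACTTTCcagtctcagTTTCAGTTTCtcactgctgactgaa
Ifit3, chr19:34583358-34583431: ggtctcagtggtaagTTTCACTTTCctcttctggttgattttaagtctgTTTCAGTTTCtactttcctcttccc
Ifit3b, chr19:34607754-34607827: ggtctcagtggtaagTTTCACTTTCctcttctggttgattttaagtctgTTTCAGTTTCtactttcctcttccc
Oas1a, chr5:120907526-120907560: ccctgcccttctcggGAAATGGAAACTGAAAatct
Oas1g, chr5:120887614-120887646: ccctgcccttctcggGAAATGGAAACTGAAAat
Oas3, chr5:120777710-120777749: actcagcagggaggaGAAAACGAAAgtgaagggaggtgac

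The *Ifit3* and *Ifit3b* stretches were identical in all 74 bases, and all 33 bases of the *Oas1g* stretch matched the start of that of *Oas1a*. All 3 IFIT members with the core carried it 2 times, on the strand opposite to the gene and between 188 and 76 bases before the start. The OAS members carried it on the strand of the gene, starting 75 bases before the start in *Oas3* and within 20 bases of it in *Oas1a* and *Oas1g*. No match lay in the 2 windows of *Ifit2* or in those of *Oasl1* and *Oasl2*, which says only that these letters are not in those windows. The reference is the C57BL/6 genome, so the promoters of the C3H/HeN mice used here may differ from it at single bases.

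**Figure D1:**
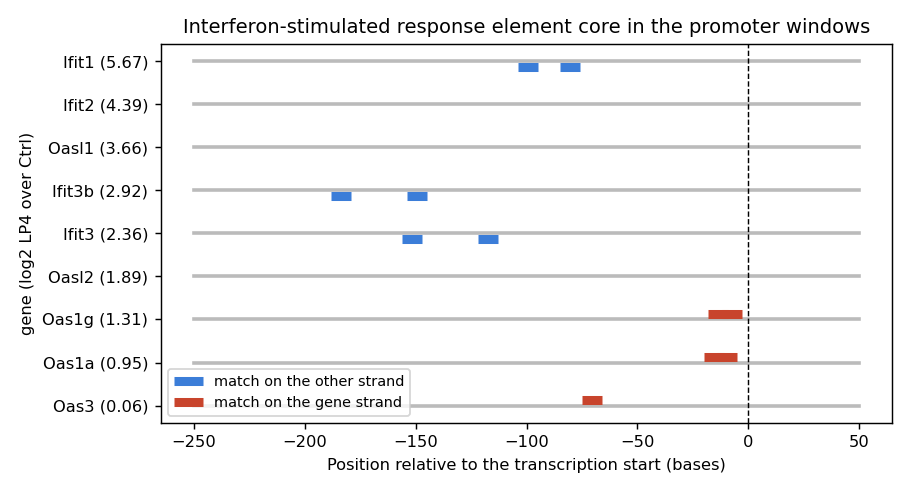
Matches of the response element core in the promoter windows of 9 members (gray lines, position in bases from the transcription start), with genes ordered by their log2 ratio of LP4 over Ctrl in parentheses. *Ifit2* (4.39) and *Oasl1* (3.66) have no match in the window, and *Oas3* (0.06), the gene with the smallest ratio, has 1. A link between matches and ratios was not tested.

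After 4 h of *Bb*LP every member but *Oas3* stood clearly above its Ctrl level, with *Ifit1* and *Ifit2* ahead of the rest. *Ifit1*, *Ifit2* and *Oasl1* were the 3 members at least 8-fold higher in LP4 than in Ctrl, a size reached by 1.39% of all genes, and 8 members were at least 2-fold higher, against 10.9% of all genes. None was at least 2-fold lower, against 15% of all genes. The median log2 ratio was 3.65 over the 4 IFIT members and 1.56 over the 6 OAS members, beside -0.15 over the 13414 genes. These ratios compare single libraries, and the values by cell and by cluster follow further on.

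**Figure D2:**
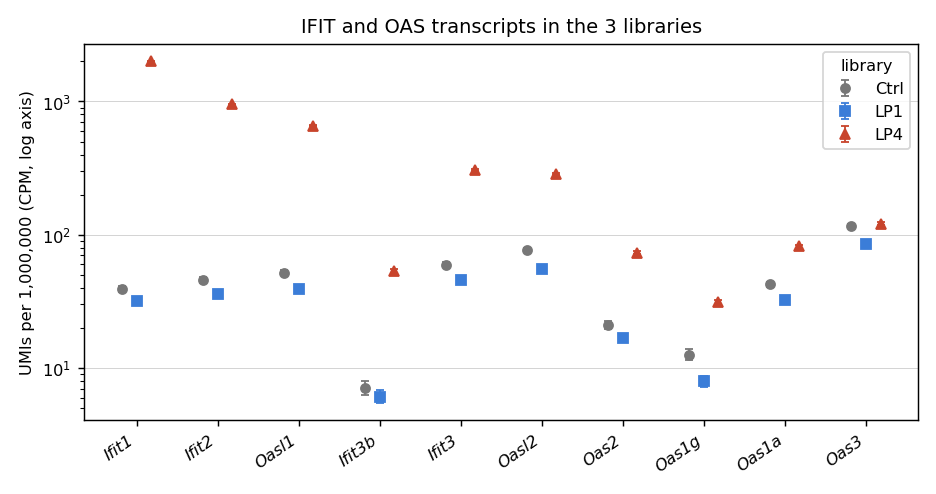
Level of each member in the Ctrl, LP1 and LP4 libraries, as CPM of the summed UMIs on a log axis with exact Poisson 95% intervals (mostly smaller than the points). From *Ifit1* (39.4, 32.0 and 1998 CPM) to *Oas3* (116, 85.6 and 121 CPM) the gap between LP4 and the other 2 libraries closes, and LP1 lies below Ctrl for every member.

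*Ifit1*, which recognizes viral RNA whose cap lacks a methyl mark of host mRNA, was at 39.4 CPM in Ctrl (interval 37.3 to 41.5), 32.0 CPM in LP1 (30.5 to 33.5) and 1998 CPM in LP4 (1987 to 2009). LP4 alone was high, with a log2 ratio to Ctrl of 5.67 (5.59 to 5.74), and the gene ranked 13 of 13414 by this ratio. *Ifit2*, which forms complexes with other IFIT proteins and is also known for promoting apoptosis, was at 45.5 CPM in Ctrl, 36.1 CPM in LP1 and 951 CPM in LP4. Its log2 ratio of LP4 over Ctrl was 4.39 (4.31 to 4.46). In LP4 the pair thus stood 50.8-fold and 20.9-fold above Ctrl.

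*Ifit3*, whose human counterpart stabilizes IFIT1 and strengthens its RNA binding, was at 59.6 CPM in Ctrl, 46.0 CPM in LP1 and 305 CPM in LP4. *Ifit3b*, a second copy of *Ifit3* in the mouse, was at 7.09 CPM in Ctrl (6.24 to 8.02), 6.10 CPM in LP1 (5.45 to 6.80) and 53.8 CPM in LP4 (52.0 to 55.7). Both stood high in LP4 only, with log2 ratios to Ctrl of 2.36 (2.29 to 2.42) and 2.92 (2.74 to 3.11). These ratios carry a limit: 19.1% of the stretches of 50 bases in the last 400 bases of the *Ifit3* transcript, where 3′ libraries place their reads, also occur in *Ifit3b*, so reads may have been dropped or split between the copies. For *Ifit1* and *Ifit2* this share was 0%.

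Among the OAS members, *Oasl1* stood apart. *Oasl1* was at 51.8 CPM in Ctrl (49.5 to 54.3), 39.3 CPM in LP1 (37.6 to 41.0) and 656 CPM in LP4 (650 to 662). Relative to Ctrl, LP4 was 3.66 higher on the log2 scale (3.59 to 3.73). *Oasl2* was at 76.7 CPM in Ctrl, 55.4 CPM in LP1 and 285 CPM in LP4, a log2 ratio of 1.89 (1.84 to 1.95). Both were high in LP4 only, and the intervals of these neighboring genes were far apart. *Oasl1* encodes a protein without synthetase activity, whereas mouse OASL2 has kept it.

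The remaining synthetases had the smaller ratios, with the interval of *Oas2* overlapping that of *Oasl2*. *Oas2*, a synthetase built of 2 OAS units, was at 21.0 CPM in Ctrl, 16.8 CPM in LP1 and 73.3 CPM in LP4, which put LP4 above Ctrl by 1.80 on the log2 scale (1.69 to 1.92). *Oas1g* was at 12.6 CPM in Ctrl, 7.93 CPM in LP1 and 31.2 CPM in LP4, a log2 ratio of 1.31 (1.16 to 1.46). *Oas1a* was at 42.4 CPM in Ctrl, 32.2 CPM in LP1 and 81.8 CPM in LP4, a log2 ratio of 0.95 (0.87 to 1.03). *Oas1a* and *Oas1g* are near copies of the short, single-domain synthetase, and 43.6% of the 3′ stretches of *Oas1a* also occur in *Oas1g*, so their separate ratios are uncertain.

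*Oas3*, the largest synthetase and a sensor of long double-stranded RNA, was at 116 CPM in Ctrl (113 to 120), 85.6 CPM in LP1 (83.1 to 88.1) and 121 CPM in LP4 (118 to 124). LP1 was the low library for this gene, and Ctrl and LP4 had overlapping intervals. The ratio of LP4 over Ctrl was 0.06 on the log2 scale (0.00 to 0.11), rank 5369 of 13414. Over the alternative scalings and cell filters it ran from 0.01 to 0.26.

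At 1 h no member was above its Ctrl level in the library as a whole. All 10 were lower in LP1 than in Ctrl, where 54.7% of all genes were lower, and the median log2 ratio was -0.39 beside -0.04 over all genes. The ratios ran from -0.22 for *Ifit3b*, whose interval (-0.46 to 0.03) includes 0, to -0.67 for *Oas1g* (-0.86 to -0.47). *Oas3* stood at -0.44 (-0.50 to -0.38) and *Oasl2* at -0.47 (-0.55 to -0.39). No member was 2-fold lower, against 2.51% of all genes, or 2-fold higher, against 1.38%. These are small differences between single libraries of unequal depth.

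Against LP1, the LP4 levels were higher for all 10 members, against 43.3% of all genes, and 9 were at least 2-fold higher, against 9.88% of all genes. Here 4 members passed 8-fold, against 1.51% of all genes, since *Ifit3b* joined *Ifit1*, *Ifit2* and *Oasl1*. *Ifit1* reached a log2 ratio of 5.97 (5.90 to 6.04). *Oas3*, the exception, was at 0.50 (0.44 to 0.55). The comparisons with Ctrl and with LP1 share the LP4 library.

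At equal depth, *Ifit1*, *Ifit2* and *Oasl1* were each seen in most LP4 cells and the other 7 members in a minority. *Ifit1* was seen in 85.6% of LP4 cells (84.5 to 86.6), against 5.80% in Ctrl (5.22 to 6.42) and 4.39% in LP1 (3.85 to 5.00). For *Ifit2* the LP4 share was 60.9%, beside 6.05% and 4.99% for Ctrl and LP1, and for *Oasl1* it was 53.2%, beside 7.13% and 5.54%. Only LP4 was high for these 3 genes. *Oasl2* was seen in 40.6% of LP4 cells, beside 13.6% and 10.3% for Ctrl and LP1, and *Ifit3* in 33.4%, beside 8.03% and 6.67%. The remaining members were seen in at most 21.2% of LP4 cells, from *Oas1g* at 5.90% to *Oas3*, whose share in Ctrl was 20.2%. A minority share at this depth does not mean that most cells lacked the transcript. Without thinning, the LP4 share was 87.4% for *Oasl2*, 69.0% for *Ifit3* and 67.0% for *Oas3*. It was 59.6% for *Oas1a*, 55.5% for *Oas2*, 31.0% for *Oas1g* and 26.3% for *Ifit3b*.

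Free RNA in the droplets can give UMIs in cells that do not express a gene. Cluster H, led by the granule genes *Mpo* and *Elane* and called neutrophil-like, served as a gauge. In its 29 thinned LP4 cells, *Ifit1* was seen in 2 cells, or 6.90% (0.85 to 22.8), and 25 of the 29 cells had no member at all, at a median of 9303 UMIs per cell before thinning, against 11784 for all LP4 cells. *Oasl1*, *Oasl2*, *Ifit3* and *Oas3* were seen in 0 of 29 cells. These shares lay well below those of the LP4 library as a whole for *Ifit1*, *Ifit2* and *Oasl1*, while 29 cells say little about the synthetases, since a count of 0 leaves an interval up to 11.9%.

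The number of members seen per cell separated the libraries. At 2000 UMIs none of the 10 members was seen in 3.29% of LP4 cells, against 53.4% in Ctrl and 62.7% in LP1. At least 3 members were seen in 71.4% of LP4 cells, 6.71% in Ctrl and 4.93% in LP1, and the medians were 3, 0 and 0 members. In LP4, 28.6% of cells showed at most 2 members, and 23.8% at least 5. Random sampling at 2000 UMIs also spreads these counts, and its part was not tested. The shares alone therefore do not show how far LP4 cells differed. No cell of any library showed all 10.

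**Figure D3:**
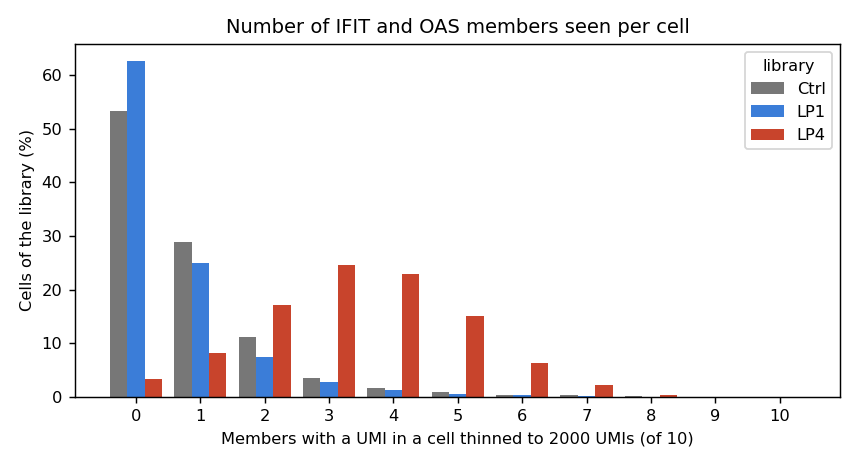
Share of cells (%) by the number of members with a UMI after thinning to 2000 UMIs, for Ctrl, LP1 and LP4. Ctrl and LP1 pile up at 0 (53.4% and 62.7%), while LP4 centers on 3 (24.6%) and 4 (22.9%).

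A small set of cells carried much of the IFIT signal in the Ctrl library, which received no lipoprotein. In Ctrl, 98 of 5949 cells (1.65%) showed at least 5 members, and these cells held 36.2% of the *Ifit1*, 37.9% of the *Ifit2* and 54.7% of the *Ifit3b* UMIs of the thinned library. They held 19.4% of the *Oasl1* but only 7.31% of the *Oas3* and 9.94% of the *Oas1a* UMIs. The cells were picked by these same genes, so the shares describe how unevenly each gene was spread and are not a test. In LP1, 51 of 5052 cells (1.01%) met the same mark and held 33.2% of the *Ifit1* and 4.45% of the *Oas3* UMIs. Most of them were in cluster B, with 63 of the 98 in Ctrl (64.3%) and 33 of the 51 in LP1 (64.7%). Of all kept cells, B held 26.7% in Ctrl and 22.9% in LP1. The cycling-like cluster F held 0 of the 98, beside 6.47% of all Ctrl cells. It held 4 of the 51 (7.84%), near its 7.62% of all LP1 cells.

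The spread over all Ctrl cells, taken from these same counts, also differed between the genes. The Fano factor, the variance divided by the mean and near 1 for counts scattered at random, was 2.30 for *Ifit1*, 2.59 for *Ifit2*, 2.72 for *Ifit3* and 2.46 for *Oasl1*. For *Oas1a*, *Oas1g*, *Oas2*, *Oas3* and *Oasl2* it lay between 1.00 and 1.22. By this factor the transcripts of *Ifit1*, *Ifit2*, *Ifit3* and *Oasl1* were bunched in Ctrl. The sign was weaker for *Oas3* (1.22) and *Oasl2* (1.18), and *Oas1a*, *Oas1g* and *Oas2* lay near 1. *Oas1g* and *Oas2* averaged only 0.026 and 0.045 UMIs per thinned Ctrl cell, where the factor says little. The synthetases and *Oasl2* also went with *Ifit1*: *Oas1a* was seen in 16.5% of *Ifit1*-positive Ctrl cells against 7.76% of the others. The shares were 6.67% against 2.32% for *Oas1g*, 11.3% against 3.93% for *Oas2* and 28.7% against 12.7% for *Oasl2*. The Fano factor of *Ifit3b* lay between these sets in both Ctrl (1.43) and LP4. For bunched counts this factor grows with the mean, and *Ifit3b* averaged 0.016 UMIs per thinned Ctrl cell, against 0.089 for *Ifit1*. The value therefore does not rank *Ifit3b* as less bunched than the other IFIT members. In LP4 the Fano factor was 3.76 for *Ifit1*, 3.05 for *Ifit2*, 2.25 for *Ifit3* and 2.45 for *Oasl1*. It was 0.98 to 1.15 for the synthetases and *Oasl2*. *Ifit1* averaged 4.16 UMIs per thinned LP4 cell, so the LP4 values cannot be set against those of Ctrl as a measure of bunching.

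At 2000 UMIs per cell, the higher LP4 level showed differently from gene to gene. Among cells with a UMI of the gene, *Ifit1* averaged 1.53 UMIs in Ctrl and 4.87 in LP4, and *Ifit2* averaged 1.64 and 3.14. For these, both the share of cells and the amount per positive cell were higher. *Ifit3* averaged 1.66 UMIs in Ctrl and 1.87 in LP4, so its higher level showed mostly as more cells with a UMI. Over all thinned LP4 cells *Ifit3* averaged only 0.62 UMIs. At so low a count, more expressing cells and more transcripts per cell cannot be told apart. Before thinning, LP4 cells from the 10th to the 90th percentile held 3 to 58 *Ifit1* UMIs.

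Cells were grouped into 10 clusters, A to J, from genes that excluded the members and the interferon genes listed for this work. A to E and I were named from macrophage markers and F from cell cycle genes. The antigen-presentation genes of dendritic cells gave G its name, neutrophil genes H and stromal genes J, with 13 cells. F also had 9 macrophage markers and G 7 that were each seen in at least 50% of cells, beside 7 in A, 5 in I and 4 in H. *Egr3* led cluster B, the coagulation factor gene *F13a1* and the chemokine *Cxcl5* led E, and the stress gene *Ddit3* led I. The library shares of 2 macrophage-like clusters differed strongly, since B held 26.7% of Ctrl but 5.91% of LP4 cells and E 8.57% of Ctrl but 28.5% of LP4 cells. Clusters A to G, each with at least 50 cells per library, were compared within themselves. Given the shifted shares of B and E, ratios within these 2 clusters may compare unlike cells, which was not tested.

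In every one of the 7 clusters, 9 members were higher in LP4 than in Ctrl, as were 19.8% of all genes. Within single clusters, 9 or 10 members were higher, against 40.3% to 48.6% of all genes. *Ifit1* ranged from a log2 ratio of 5.08 (4.95 to 5.20) in cluster B to 6.16 (5.91 to 6.42) in cluster D. *Oasl2* was the most even, from 1.62 in B to 2.06 in F. *Oas3* was higher in 5 of 7 clusters, and its ratios were -0.05 (-0.25 to 0.14) in B and -0.10 (-0.25 to 0.04) in E. Only in D (0.21, interval 0.06 to 0.35) and in the cycling-like F (0.56, interval 0.37 to 0.75) did the interval for *Oas3* lie above 0.

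At 1 h the clusters were less uniform. Of the 70 pairs of a member and a cluster, 57 were lower in LP1 than in Ctrl, 37 of them with an interval below 0, and 13 were higher. The interval lay above 0 in 3 pairs: *Oasl1* in E at 0.28 (0.02 to 0.54), *Ifit3b* in G at 2.24 (0.14 to 5.41) and *Oas2* in G at 2.14 (0.02 to 5.32). Each of the 2 values in G rests on 2 UMIs in Ctrl, against 15 for *Ifit3b* and 14 for *Oas2* in LP1. The intervals were not adjusted for the 70 pairs. In G, 3 of 10 members were lower, against 44.0% of all genes.

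**Figure D4:**
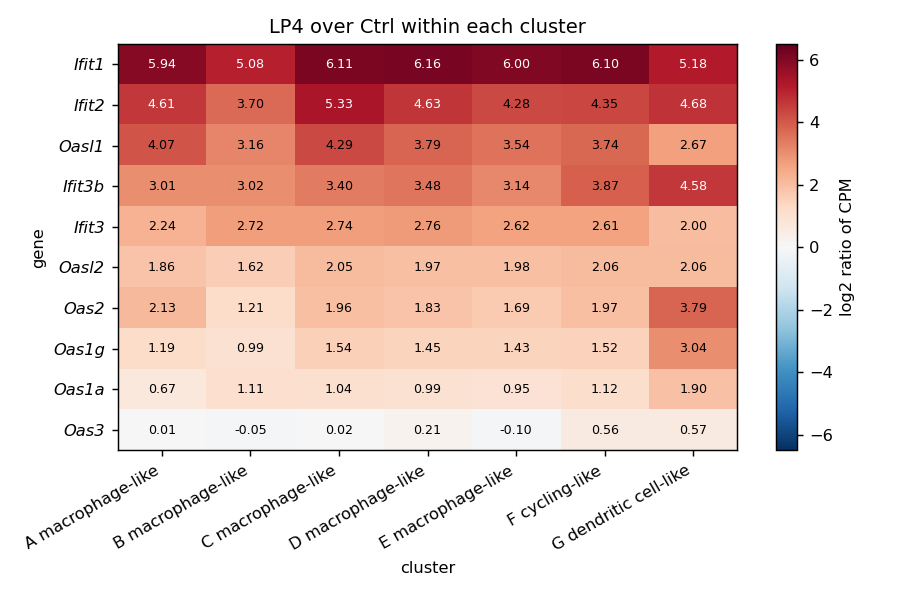
Log2 ratio of LP4 over Ctrl CPM (color and number) of each member within 7 clusters. *Ifit1* stays above 5 in every cluster, while *Oas3* lies between -0.10 and 0.57; cluster G holds 84 Ctrl and 72 LP4 cells, so its values for low genes are wide.

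Over clusters A to G, the absolute LP4 level differed chiefly for the IFIT members. The highest over the lowest cluster level was 4.28-fold for *Ifit3b*, 3.79-fold for *Ifit3*, 2.90-fold for *Ifit2* and 2.75-fold for *Ifit1*. Among A to G, all 4 were lowest in the cycling-like cluster F, where *Ifit1* was at 1048 CPM. In the smaller clusters, *Ifit1* was at 287 CPM (227 to 357) in the 18 LP4 cells of the macrophage-like I. It was at 55.0 CPM in the 29 of the neutrophil-like H and at 1267 CPM in the 7 of the stromal-like J. *Ifit1*, *Ifit3* and *Ifit3b* were highest in B (2878 CPM for *Ifit1*) and *Ifit2* in the dendritic cell-like G. The range was 1.64-fold for *Oasl1* and at most 1.51-fold for the other OAS members. LP4 cells of F had a median of 21222 UMIs and those of B 9454, and the part of cell size in these levels was not tested. Among A to G, cluster B had the smallest *Ifit1* ratio. Its *Ifit1* level in Ctrl was the highest, 85.3 CPM (78.3 to 92.8), against 15.3 CPM in F and up to 65.7 CPM in the others.

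Between LP4 cells, *Ifit1*, *Ifit2* and *Ifit3* varied together, less so within cluster C, and the synthetases had correlations near 0 at this depth. Spearman's correlation over the 4625 thinned LP4 cells, given as a description, was 0.42 for *Ifit1* with *Ifit2*, 0.28 for *Ifit1* with *Ifit3* and 0.24 for *Ifit2* with *Ifit3*. *Oasl1* came next, at 0.22 with *Ifit1*. The median was 0.21 over the 6 IFIT pairs, 0.04 over the 24 pairs of an IFIT with an OAS member and 0.02 over the 15 OAS pairs (-0.01 to 0.09). The cells share 1 library and 1 depth, and counts of the synthetases are so sparse that a correlation near 0 says little about them. Within the 7 clusters the *Ifit1* and *Ifit2* correlation lay between 0.30 and 0.48, that of *Ifit1* and *Ifit3* between 0.08 and 0.38 and that of *Ifit2* and *Ifit3* between 0.06 and 0.32, with the lowest value of each in cluster C (894 cells).

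**Figure D5:**
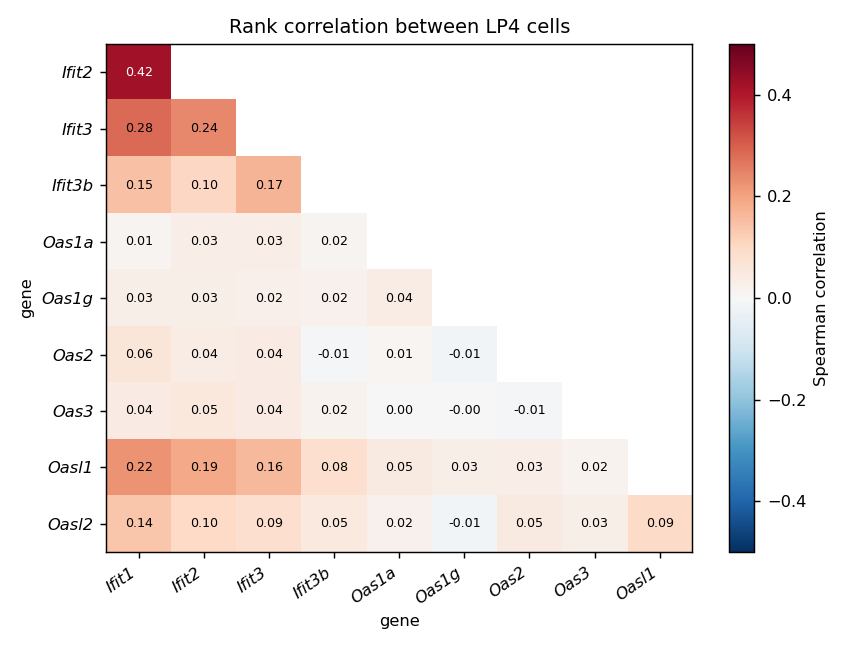
Spearman correlation between LP4 cells (4625 cells thinned to 2000 UMIs) for every pair of members. The largest values are those of *Ifit1*, *Ifit2* and *Ifit3* with each other (0.24 to 0.42) and of *Ifit1* with *Oasl1* (0.22), and the 15 OAS pairs stay at or below 0.09.

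Among the 668 LP4 cells without an *Ifit1* UMI, 28.6% had *Ifit2* (25.2 to 32.2), against 66.3% of the 3957 cells with it (64.8 to 67.8). *Oas1a* was seen in 14.4% (11.8 to 17.3) and 15.8% (14.6 to 16.9) of the same cells, with overlapping intervals. *Oas2* was seen in 10.3% (8.13 to 12.9) and 14.5% (13.4 to 15.6), which do not overlap, and *Oas3* in 17.7% (14.8 to 20.8) and 21.8% (20.5 to 23.1), which do. In Ctrl, *Ifit3* was seen in 38.3% (33.1 to 43.6) of the 345 *Ifit1*-positive cells and in 6.17% (5.56 to 6.84) of the other 5604. *Oas3* went with *Ifit1* in Ctrl cells too, at 36.2% (31.2 to 41.5) against 19.2% (18.2 to 20.3).

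Of the 8 genes most like the members, 4 were on the pathway list described next. Of 5323 genes compared over the 4625 LP4 cells, *Rsad2* (viperin, an antiviral enzyme that makes a chain-terminating nucleotide) had the highest Pearson correlation with the summed members on the log2 scale, 0.64. *Cmpk2*, a nucleotide kinase gene next to *Rsad2*, followed at 0.46 and the chemokine *Cxcl10* at 0.44. *Gbp5* (0.35), *Isg15* (0.32), *Ifi203* (0.32), *Parp14* (0.28) and *Il15* (0.28) completed the 8. *Rsad2*, *Cmpk2*, *Isg15* and *Parp14* are the listed ones. The sum is weighted to *Ifit1*, which gave 43.9% of the member UMIs in LP4.

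The rest of the pathway was read from a list of 61 genes in 7 groups, of which 58 matched the matrices and 51 had at least 50 UMIs. Of these 51, 30 were at least 2-fold higher in LP4 than in Ctrl (10.9% of all genes) and 1 at least 2-fold lower, with a median log2 ratio of 1.35. Among 3 other IFIT and OAS copies, *Ifit1bl1* was at 9.55, 6.69 and 90.7 CPM in Ctrl, LP1 and LP4 (log2 ratio of LP4 over Ctrl 3.25) and *Ifit1bl2* at 0.95, 0.86 and 6.17 CPM (2.70). *Oas1c*, at 7.62, 5.35 and 7.12 CPM (-0.10), was, like *Oas3*, near its Ctrl level in LP4.

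Beyond the synthetases, 2 listed genes for messenger turnover and ribosome recycling were within 2-fold of Ctrl. *Pde12*, which degrades the oligoadenylate messenger, was 0.70 higher in LP4 than in Ctrl on the log2 scale, and *Abce1*, a ribosome recycling factor, was at 0.49. The translation factors that IFIT proteins bind or compete with were also within 2-fold, with *Eif3e* at 0.58, *Eif4e* at 0.50 and *Eif3c* at -0.29.

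Upstream, mRNA of the ligand itself was scarce in these libraries. *Ifnb1*, which encodes interferon beta, gave 96 UMIs in LP4, 10 in LP1 and 2 in Ctrl (log2 ratio of LP4 over Ctrl 4.80, interval 2.91 to 7.87), and 3 listed interferon alpha genes gave 0 UMIs in every library. Of the 5 ligand and receptor genes assessed, *Ifnb1* was the one that passed 2-fold. *Ifngr2*, a chain of the interferon gamma receptor, was at 0.83, while the other chain, *Ifngr1*, was at -0.62. Among 10 signal genes 4 passed 2-fold, led by the feedback inhibitors *Socs1* (5.75) and *Usp18* (3.40). *Irf3*, the factor that starts interferon beta transcription, was the 1 gene of the list at least 2-fold lower, at 13.7, 10.2 and 6.43 CPM (log2 ratio -1.09, interval -1.29 to -0.90). Under TMM or median-of-ratios scaling it was at -0.92 or -0.88, and no listed gene was then 2-fold lower.

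The RNA sensors and the other interferon-stimulated genes were mostly higher in LP4 as well. Of 7 sensors 5 passed 2-fold, led by *Ifih1* (MDA5, 2.24) and the kinase *Eif2ak2* (PKR, 1.95). Of 20 other interferon-stimulated genes 18 passed, led by *Cmpk2* (15.5, 14.7 and 720 CPM, log2 ratio 5.54) and *Rsad2* (130, 107 and 4995 CPM, 5.27). At 1 h, 3 of the 51 genes were 2-fold away from Ctrl, against 3.89% of all genes, and all 3 were higher. They were named after their values were seen: *Ifnb1* (1.77, interval -0.46 to 5.00, which includes 0), *Socs1* (1.20) and *Bst2*, the virus-tethering protein tetherin (60.9 CPM in Ctrl, 143 CPM in LP1 and 181 CPM in LP4, 1.23).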

How the data were processed

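Single-cell RNA-seq (10x 3′ chemistry) was deposited for 3 libraries, 1 per condition. The authors made raw UMI counts per gene and cell with Cell Ranger against mm10; the deposited count matrices name version 7.1.0 and carry no further normalization. C3H/HeN reads were thus aligned to a C57BL/6 genome, and reads shared by near-identical copies may have been dropped.

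Cells with over 500 UMIs, over 500 genes and under 5% mitochondrial UMIs were kept. The study states these thresholds but reports fewer cells after its filtering, so the cells are not the same set. Doublets were not removed. UMIs were summed per library and scaled to CPM over 35688939 to 61402275 UMIs; ratios carry exact binomial, levels exact Poisson, and shares exact (Clopper-Pearson) 95% intervals, which cover counting error only. Cells from 1 pool are not replicates, so no test was run. A gene without a UMI in a library was set to a floor of 3 counts in ratios, and other low counts were used as they were. Genes with at least 50 UMIs formed the background. Shares, co-detection and Spearman correlations used cells thinned to 2000 UMIs.

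Clusters came from 2000 variable genes whose CPM differed by under 1.5-fold between libraries, centered per library, 30 components, 20 neighbors and Leiden resolution 0.5 (scanpy 1.11.5). Leaving the members and the listed genes out of the clustering genes was decided after the data were seen. A cluster took the name of a marker list where at least 3 of its markers were among the 10 leading genes. Where no list reached this, it was called macrophage-like if at least 3 macrophage markers were each seen in at least 50% of its cells. Motif matches were counted in RefSeq promoter windows, and shared 3′ stretches in GENCODE M21 transcripts.

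All 10 members are named, with other IFIT and OAS copies of at least 50 UMIs, the 2 largest ratios and any gene 2-fold lower per pathway group, and the 8 genes most correlated with the summed members. *Ifngr1* and *Eif3c* were added after their values were seen. The members and lists were chosen with earlier results of these data known. Alternatives were TMM (edgeR 4.0.16) and median-of-ratios scaling, other totals, cell filters, thinning depths and cluster resolutions. The calculations were tested on simulated data. Some single genes of the listed pathway are not reported here.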

Additional observations from a re-analysis of the deposited data

How the results depend on the processing

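No paired analysis was possible because each condition is 1 library. For the same reason no library could be left out, and depth limits the genes with few UMIs most. In the libraries as a whole, all 10 members kept their direction in all 3 comparisons under every alternative run, and no value reversed. For *Oas3* in LP4 over Ctrl the sign says little, since several of its intervals included 0. In the macrophage-like clusters alone its log2 ratio was 0.01 (-0.05 to 0.07). TMM scaling moved the median of all log2 ratios of LP4 over Ctrl by 0.17 and median-of-ratios scaling by 0.21. The median over the members was then 2.29 and 2.33 for LP4 over Ctrl (2.01 as the mean of cell shares, 2.13 as reported) and 2.64 and 2.68 for LP4 over LP1 (2.42 as the mean of cell shares, 2.55 as reported). Under both scalings 9 members, *Oas1a* now included (1.12 and 1.16), were at least 2-fold higher in LP4 than in Ctrl, as were 31 and 32 of the 51 listed genes. The cell measures followed the depth. The median share of LP4 cells with a UMI of a member was 27.3% at 2000 UMIs, 15.8% at 1000, 43.0% at 4000 and 68.0% without thinning. Cells with at least 5 members made up 23.8%, 6.71%, 53.3% and 85.4% of LP4 cells at the same depths. The median correlation over the 45 pairs rose from 0.04 to 0.24 without thinning, where depth differs between cells. At resolution 0.3 the lowest cluster median of the log2 ratio of LP4 over Ctrl was 1.94, against 2.17. With no filter other than 1 UMI, 9.62%, 7.84% and 14.4% of genes were at least 2-fold higher in LP4 over Ctrl, LP1 over Ctrl and LP4 over LP1. Keeping the members and listed genes among the clustering genes, an alternative chosen after seeing the data, gave 9 clusters and cluster medians from 2.05 to 2.79.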
